A study of Mus musculus with 6 samples.

Results

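Mouse chromosome 9 was examined bin by bin in Hi-C matrices of C2C12 cells, an established line of mouse myoblasts that stop dividing and fuse into multinucleated myotubes in differentiation medium. It was selected on measured values, because a large share of its bins differed in compartment between the conditions, so the shares themselves are a description and not a finding. The members were all 500 kb bins of chromosome 9 whose diagonal value was above 0.5 in each of the 3 matrices. They numbered 243 of the 249 bins of the chromosome, out of 4727 such bins on the 19 autosomes, and the 6 bins without data were at the centromeric end. Coordinates are those of mm10, which has the same bases as GRCm38, and a bin is named by the megabase at which it starts.

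Myoblasts were proliferating cultures harvested 72 h after seeding, which is day 0. Myotubes were taken after 3 days in differentiation medium. AraC-treated myotubes were cultured to day 7 with 10 µg/ml cytosine arabinoside (AraC), an inhibitor of DNA synthesis in dividing cells, added on day 3. Per the paper, the day 3 cultures still held some myoblasts, which AraC apparently removed. Part of the nuclei still lay outside myosin-positive cells on day 7. AraC exposure, culture time and any loss of myoblasts cannot be told apart. Each condition was measured in 2 biological replicates, from separate source vials, which the authors pooled into a single matrix. The matrices used here therefore give no spread between replicates for any bin and no test between the conditions. Per the paper, matrices of the separate replicates correlated less well for Myoblasts than for either later condition. Myoblast replicates correlated with each other only slightly more than with Myotube replicates. How far differences from Myoblasts exceed those between replicates was not tested for any bin. The paper's totals of valid read pairs were highest for Myotubes and lowest for AraC-treated myotubes. The depth behind a single value is unknown because the matrices hold correlation coefficients and not contacts.

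In Hi-C, DNA segments that lie close together in the nucleus are ligated and sequenced as pairs. The contact pattern of a mammalian chromosome alternates between an A compartment, which is gene-rich and mostly transcribed, and a B compartment, which is gene-poor, late replicating and often attached to the nuclear lamina. The first principal component of the correlation matrix (PC1) separates both, with positive values for A and negative values for B. Here PC1 was taken per chromosome and condition, turned so that it was positive where protein-coding transcription start sites were dense, and divided by its SD over the bins. A value of 1 is thus 1 SD above the mean bin of the chromosome in that condition. Since PC1 is centred on 0 in each condition, higher values in one segment are offset by lower values elsewhere on the same chromosome. A bin is said to have changed only where the sign of its PC1 differed between conditions. The comparison of Myoblasts with Myotubes is called the first step, that of Myotubes with AraC-treated myotubes the second step, and that of Myoblasts with AraC-treated myotubes the whole course. All rest on the same 3 matrices. Where 3 values of PC1 follow each other, they are for Myoblasts, Myotubes and AraC-treated myotubes in this order.

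The bases just before the start sites of some genes are shown to place them on the chromosome. They are RefSeq entries (GRCm38.p6) for genes of bins with large differences in PC1, read 5′ to 3′ on the strand of the gene and ending before the first exon of GENCODE vM21. Capitals mark CG dinucleotides. The first 4 lie in bins that moved from B to A, and the last lies in a bin that was lower in the later conditions. Ctdspl is at chr9:118926286-118926452 on the plus strand, Tgfbr2 at chr9:116175364-116175613 on the minus strand, Eomes at chr9:118477939-118478188 on the plus strand, Rbms3 at chr9:117629914-117630163 on the minus strand and Oaf at chr9:43239912-43240066 on the minus strand.
Ctdspl: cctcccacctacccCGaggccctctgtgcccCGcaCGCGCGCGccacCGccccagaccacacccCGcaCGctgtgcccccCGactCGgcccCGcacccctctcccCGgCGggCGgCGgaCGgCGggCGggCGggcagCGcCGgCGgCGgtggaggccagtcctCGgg
Tgfbr2: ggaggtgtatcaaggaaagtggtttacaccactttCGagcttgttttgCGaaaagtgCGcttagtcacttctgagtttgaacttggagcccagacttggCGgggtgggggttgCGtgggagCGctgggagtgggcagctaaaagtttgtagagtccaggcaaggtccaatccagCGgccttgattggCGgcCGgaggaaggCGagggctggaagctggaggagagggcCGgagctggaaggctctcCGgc
Eomes: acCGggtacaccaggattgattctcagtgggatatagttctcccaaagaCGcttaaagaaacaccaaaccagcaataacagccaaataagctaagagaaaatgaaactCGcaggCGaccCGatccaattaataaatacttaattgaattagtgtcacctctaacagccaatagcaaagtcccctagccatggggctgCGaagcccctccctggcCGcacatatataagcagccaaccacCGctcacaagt
Rbms3: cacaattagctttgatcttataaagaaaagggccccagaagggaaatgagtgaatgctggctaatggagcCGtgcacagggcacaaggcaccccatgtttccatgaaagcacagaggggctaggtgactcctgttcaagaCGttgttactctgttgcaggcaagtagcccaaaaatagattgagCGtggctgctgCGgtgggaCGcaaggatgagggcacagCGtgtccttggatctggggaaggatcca
Oaf: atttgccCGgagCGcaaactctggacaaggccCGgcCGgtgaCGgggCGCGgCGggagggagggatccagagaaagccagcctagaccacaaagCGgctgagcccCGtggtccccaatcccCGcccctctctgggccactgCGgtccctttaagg
The Ctdspl stretch held 25 CG dinucleotides in 167 bases, or 15.0 per 100 bases, and the Rbms3 stretch held 6 in 250 bases, or 2.40 per 100. Tgfbr2 had 4.80, Eomes 3.20 and Oaf, with a stretch of 155 bases, 7.74 per 100 bases. Over the 250 bases before the start in all 32851 entries of the promoter table the median was 2.40 per 100 bases, and 92.1% of the entries held at least 1 CG. The stretches of Ctdspl and Oaf are shorter than 250 bases, so they are not compared with these entries over a like length. None of these 5 stretches held CAGCTG, an E-box bound by myogenic factors, or AAGCTT, the site of the HindIII enzyme used for the libraries. Both motifs are palindromes, so the search covered both strands, and they cannot overlap. CAGCTG was present in 13.0% and AAGCTT in 6.22% of all 250-base promoters of the table. Among the 118 entries between 111 and 119 Mb of chromosome 9, the shares were 14.4% and 3.39%.

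PC1 divided chromosome 9 into the same main blocks in the 3 conditions. Of the 243 bins, Myoblasts had 89 in A (36.6%), Myotubes 92 (37.9%) and AraC-treated myotubes 98 (40.3%). The A and B bins met at 42, 40 and 31 borders. In all, 69 bins were A in every condition, 128 were B in every condition and 46 (18.9%) changed in at least 1 pair of conditions. PC1 accounted for 42.9% of the variance of the chromosome 9 block in Myoblasts, against 76.1% for Myotubes and 70.1% for the AraC-treated cells, and the coefficients within the chromosome had an SD of 0.0545, 0.106 and 0.0920. The Myoblast component was thus the least precise: components computed from odd and from even partner bins differed by 0.124 (SD over bins) in Myoblasts, against 0.0570 and 0.0650 in the later conditions. This spread is within 1 matrix and is not a replicate error.

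**Figure D1:**
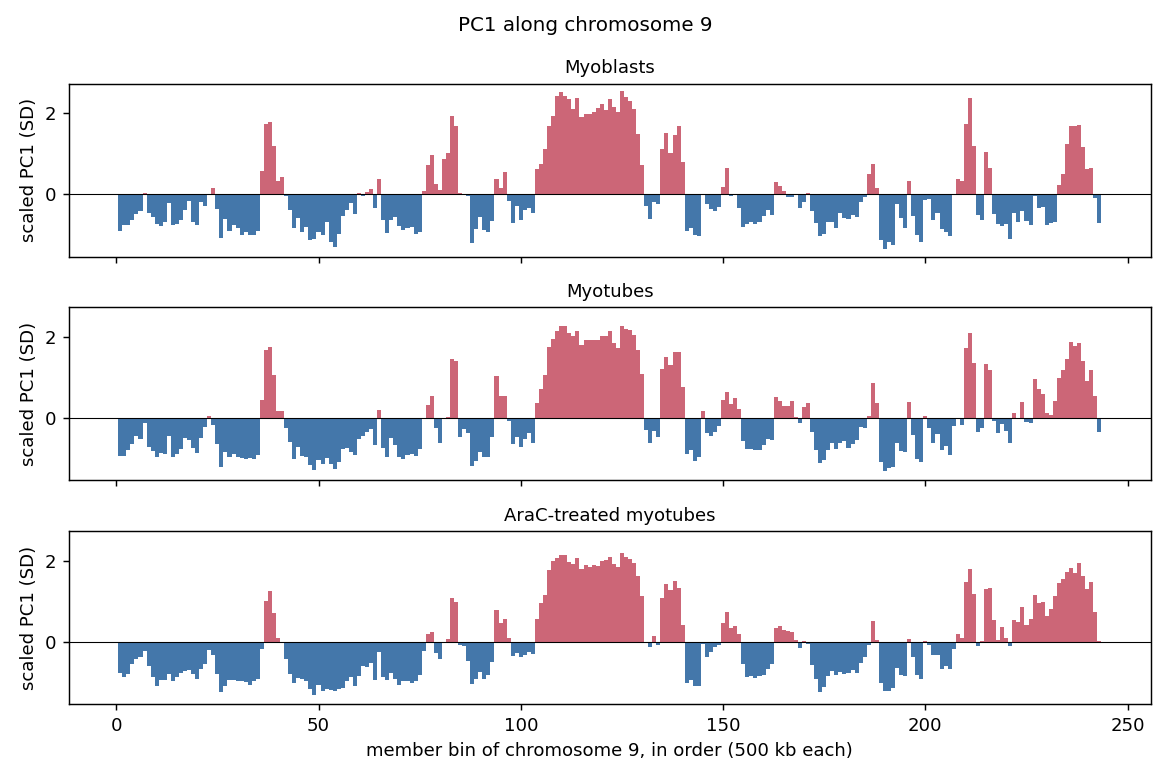
Scaled PC1 of the 243 member bins of chromosome 9 in order from the centromeric end, with a panel for each condition; red bars are bins in A, blue bars bins in B. The block of high bars in the middle is present in every panel, while 18 of the 31 bars from 109 Mb on lie below 0 in Myoblasts and above 0 in AraC-treated myotubes.

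In the first step, 27 of the 243 bins changed (11.1%, exact binomial 95% interval 7.45 to 15.8%), of which 12 left A and 15 entered it. Over all autosomes the share was 7.28%, with 4.53% leaving A and 2.75% entering it. Over the whole course, 43 bins changed (17.7%, 13.1 to 23.1%), 17 out of A and 26 into A, beside 10.2% over all autosomes (6.49% out of A and 3.72% into A). In the second step, 22 bins changed (9.05%, 5.76 to 13.4%), 8 out of A and 14 into A, beside 5.10% over all autosomes (3.05% out of A and 2.05% into A). These intervals are for counting error alone, and adjacent bins are not independent. The split depended on where 0 was set. With uncentred columns, 22 bins left A and 12 entered it in the first step, and 2 left and 17 entered in the second. With the number of A bins held equal in the 3 conditions, which makes both directions equal by construction, 15 bins moved each way in the first step, 21 over the whole course and 11 in the second step. These contrasts were used to choose the chromosome, and nothing is read from the shares beyond their description.

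Chromosome 9 had the highest share among the 19 autosomes in both comparisons with Myoblasts. It was second in the comparison of the later conditions, after chromosome 17 with 10.3%, so the name of most switching autosome holds for 2 of the 3 pairs. On the other 18 autosomes the share over the whole course ran from 2.86% to 15.3% with a median of 8.99%. By direction, 4.94% of its bins left A in the first step, against 4.50% on the other autosomes, and 6.17% entered A, against 2.56%. Over the whole course 7.00% left A, against 6.47%, and 10.7% entered it, against 3.35%.

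**Figure D2:**
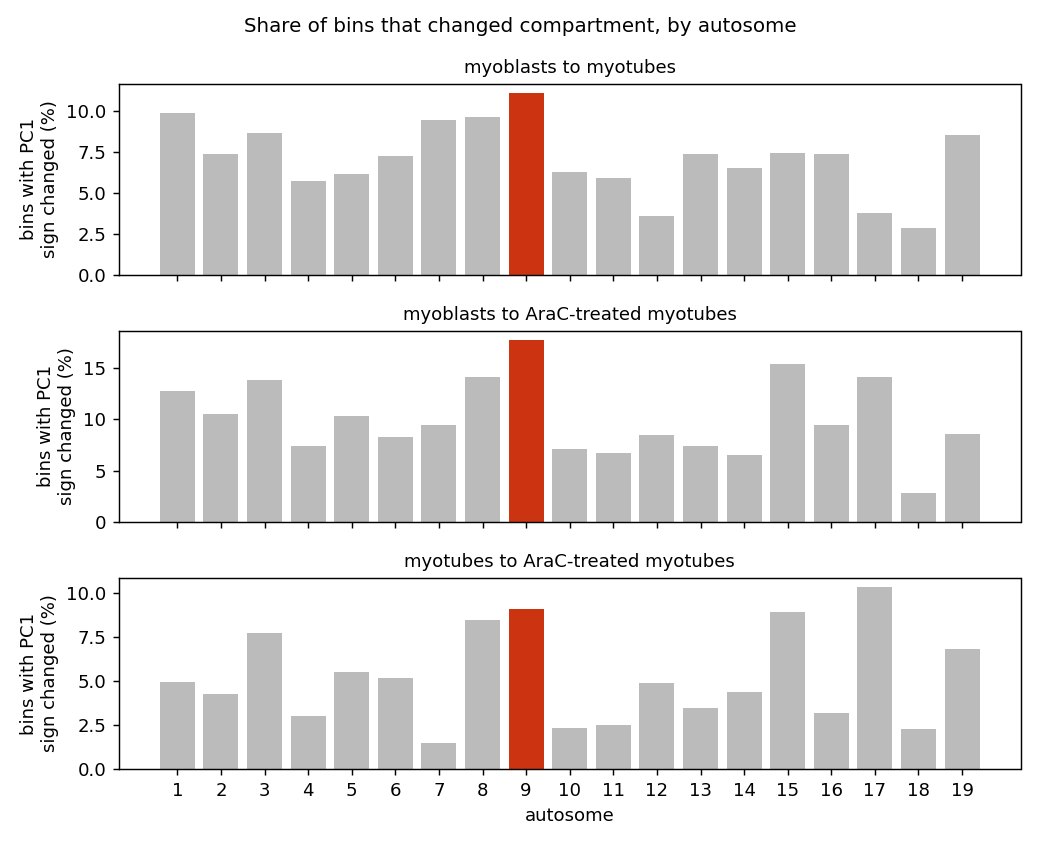
Percentage of member bins whose PC1 changed sign on each of the 19 autosomes, with a panel for each of the first step, the whole course and the second step and chromosome 9 in red. The red bar is the highest in the upper panels, at 11.1% and 17.7%, and stands below chromosome 17 in the lowest panel, at 9.05%.

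Most bins that moved from B to A lay at the distal end, 9 of 15 in the first step and 18 of 26 over the whole course. All 31 bins from 109 Mb on had a higher PC1 in Myotubes than in Myoblasts, and so they had in AraC-treated myotubes. Of these bins, 11 were in A in Myoblasts, and 20 and 29 were in A in the later conditions. PC1 was higher at both steps in 28 of the 31 bins, compared with 57 of all 243 bins of the chromosome. The 92 bins between 3 and 49 Mb differed the other way. Of these, 80 had a lower PC1 in Myotubes than in Myoblasts, and 57 were lower at both steps. Lower values were also the more common ones over the whole chromosome. In the first step 145 of the 243 bins were lower (59.7%), beside 51.3% over all autosomes. Over the whole course 143 were lower (58.8%), beside 53.4%, and 101 were lower at both steps.

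The longest stretch that moved ran from 111 to 119 Mb, from the bin of Ltf to the bin of Ctdspl, and held 16 bins with 39 protein-coding start sites. None of these bins was in A in Myoblasts, 8 were in A by day 3 and 15 by day 7. In Myoblasts the median PC1 was −0.677 (range −1.09 to −0.0441). It was 0.0326 in Myotubes (−0.606 to 0.973) and 0.552 after AraC (−0.0964 to 1.15), so the ranges overlapped. The exception was the bin at 113.0 Mb, which has no protein-coding start site and went from −1.09 to −0.606 and −0.0964 without crossing 0. It parted the run of bins changed over the whole course into 4 bins at chr9:111000001-113000000 and 11 bins at chr9:113500001-119000000. No other autosome had a run of more than 6 changed bins in that pair. The limits of the stretch were set after its values were seen. After a linear trend with position was removed from PC1, 0, 3 and 10 of the 16 bins were in A in the 3 conditions.

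**Figure D3:**
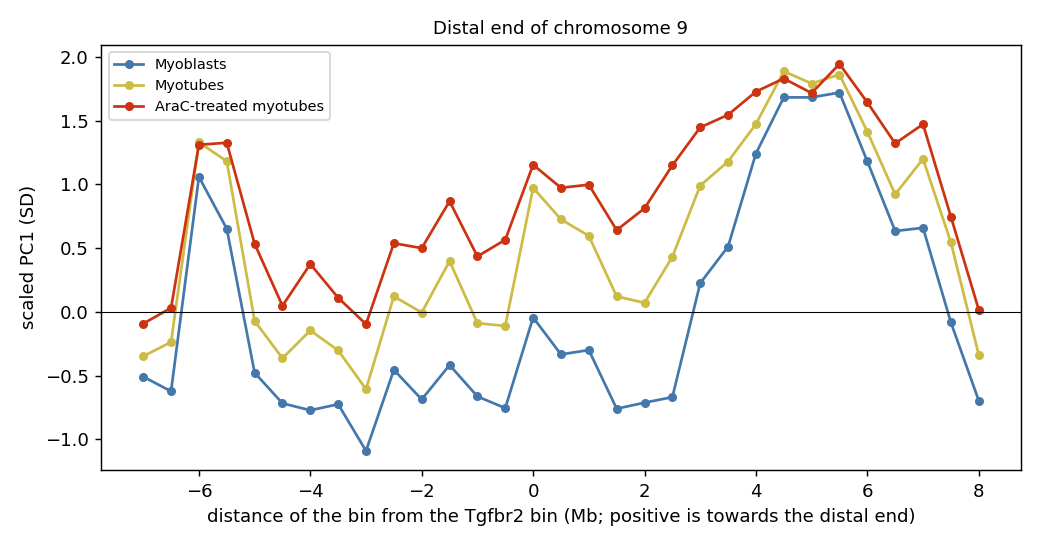
Scaled PC1 of each 500 kb bin at the distal end of chromosome 9 against its distance in Mb from the bin of Tgfbr2, with a line for each condition. From Ltf to Ctdspl the Myoblast line lies below 0, the Myotube line crosses it, and the line of AraC-treated myotubes lies above 0 in 15 of 16 bins.

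The largest difference on the chromosome was at 118.5 Mb (chr9:118500001-119000000), where PC1 was −0.668 in Myoblasts, rose to 0.431 by day 3 and reached 1.15 by day 7. The bin holds the start sites of Golga4 (a Golgi coiled-coil protein), Itga9 (the integrin α9 subunit) and Ctdspl (a phosphatase of the small CTD phosphatase family). The difference was 1.10 in the first step and 1.82 over the whole course. Next to it, the bin of Eomes, a T-box transcription factor, Azi2 and Cmc1 at 118.0 Mb had −0.712, 0.0706 and 0.812, and differed by 1.52 over the whole course. This bin also had the largest difference of the second step, 0.741. Rbms3, an RNA-binding protein gene whose body spans chr9:116572746-117629913, has its start site in the bin at 117.5 Mb, where PC1 was −0.759, 0.122 and 0.641. The bins at 116.5 and 117.0 Mb, with no coding start site, lie wholly or mostly in the body of Rbms3 and had −0.333, 0.725 and 0.973 in the one and −0.299, 0.596 and 0.997 in the other.

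Tgfbr2, which encodes the type II receptor of TGF-β, a signal known to hold back myoblast differentiation, was the only protein-coding gene with its start site in the bin at 116.0 Mb. PC1 there was −0.0441, 0.973 and 1.15. The Myoblast value was within 0.2 of the border, and the change of sign was not found with every way of taking the component, while the difference of 1.02 in the first step was the third largest rise of the chromosome. The second step added 0.181, the smallest difference of that step among the 16 bins. On its centromeric side, Gadl1, a decarboxylase gene, lies in the bin at 115.5 Mb with −0.755, −0.110 and 0.565, and Stt3b, a catalytic subunit of the oligosaccharyltransferase, in the bin at 115.0 Mb with −0.663, −0.0889 and 0.435. Both bins crossed 0 only in the second step.

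Further towards the centromere, the bin at 114.5 Mb held 11 start sites, among them Ccr4 (a chemokine receptor) and Trim71 (a regulator of stem cell mRNAs), and had −0.417, 0.398 and 0.867. The bin at 114.0 Mb, with Crtap (collagen prolyl 3-hydroxylation) and Glb1 (lysosomal β-galactosidase), had −0.687, −0.00532 and 0.50, and its Myotube value was the closest to 0 among the B bins of that condition. Clasp2, a microtubule plus-end protein gene, lies with Pdcd6ip and Ubp1 in the bin at 113.5 Mb with −0.454, 0.122 and 0.538. In the 4 bins at 111.0 to 112.5 Mb the mean PC1 was −0.672, −0.221 and 0.267. These hold Ltf (lactotransferrin), Stac (an adaptor of voltage-gated calcium channels) and Arpp21 (a cAMP-regulated phosphoprotein). The stretch was bordered by bins that were A in every condition and also had a higher PC1 in the later conditions, such as that of Acvr2b and Myd88 at 119.0 Mb, with 0.225, 0.990 and 1.45, and that of Myl3 at 110.5 Mb, with 0.652, 1.18 and 1.33.

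The deposited coefficients behind these values are given next. Each bin was compared with the bins of chromosome 9 that were A or B in all conditions and lay more than 2 Mb away. These sets were defined by the sign of PC1, so the coefficients describe PC1 and do not support it. For the 16 bins, the mean coefficient with stable A bins was −0.0269 ± 0.0169 in Myoblasts (SD over 16 bins). In Myotubes it was 0.0276 ± 0.0566, and after AraC 0.0897 ± 0.0455. With stable B bins it was 0.0222 ± 0.00994, 0.0145 ± 0.0352 and −0.0212 ± 0.0241. Coefficients in Myoblasts were smaller in general: in the stable A block between 54.5 and 68 Mb the mean coefficient with stable A bins was 0.146, 0.250 and 0.226. Whether this difference in scale bears on the contrasts that follow was not tested. The mean coefficient of the 16 bins with stable A bins less that with stable B bins was below 0 with each of the 18 other autosomes in Myoblasts (median −0.0383). It was above 0 with each of them by day 3 (median 0.0152) and by day 7 (median 0.0860), and it was higher at both steps with all 18 partners. The 16 bins were chosen by their PC1 and were the same for every partner. The 18 contrasts are thus not separate measurements and do not support PC1 either.

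Bins that moved from A to B lay mostly in the proximal segment, 9 of 12 in the first step and 13 of 17 over the whole course. The largest fall in PC1, −0.984 in the first step, was at 43.5 Mb in the bin of Nectin1, an immunoglobulin-like cell adhesion molecule, with 1.03, 0.0427 and 0.0832. It stayed just above 0 and so did not count as changed. Its neighbour at 43.0 Mb, with Arhgef12 (a guanine nucleotide exchange factor), Oaf, Pou2f3, Tmem136 and Trim29, had 0.867, −0.0206 and 0.00563. The bin of Grik4 (a kainate receptor subunit) and Tbcel at 42.5 Mb had 0.111, −0.618 and −0.422, and that of Sorl1 (a sorting receptor) at 42.0 Mb had 0.263, −0.250 and −0.273. The 6 bins between 41 and 44 Mb, from Crtam to Nectin1, were all in A in Myoblasts, and 3 and then 4 of them were in A in the later conditions. The lower values were thus reached by day 3: in the second step 3 of the 6 bins were higher and 3 lower, with a median difference of 0.00163.

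A second proximal stretch had a lower PC1 at both steps. Ets1 and Fli1, neighbouring genes for ETS family transcription factors, share the bin at 32.5 Mb, where PC1 was 0.0441, −0.510 and −0.831. All 6 bins between 32 and 35 Mb were lower at both steps, with median differences of −0.402 in the first step and −0.626 over the whole course. Kirrel3, a neuronal adhesion molecule gene, has its start site in the bin at 34.0 Mb, with 0.143, −0.262 and −0.508. At 31.5 Mb the bin of Barx2, a homeobox factor with a known role in myoblasts, was B throughout with −0.220, −0.827 and −0.850. For the 6 bins between 32 and 35 Mb the mean coefficient with stable A bins of other autosomes was 0.00269 in Myoblasts, −0.0506 by day 3 and −0.0567 by day 7, and with stable B bins it was 0.00781, 0.0485 and 0.0449. The A less B contrast was lower in Myotubes than in Myoblasts with all 18 other autosomes. Its median over these autosomes was −0.0963 by day 3 and −0.0980 by day 7, and the contrast was higher in the second step with 4 of the 18. The same 6 bins were read with every partner, so these contrasts are not separate measurements.

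Some other A bins were lower mainly in the second step. The bin of Dnmt1 (the maintenance DNA methyltransferase) at 20.5 Mb had 0.581, 0.454 and −0.176. Its neighbours at 21.0 Mb, with Cdc37, Cdkn2d and Dnm2, and at 21.5 Mb, with Smarca4, Carm1 and Angptl8, stayed in A with 1.74, 1.69 and 1.02 and with 1.79, 1.76 and 1.27. These 3 adjacent bins had the largest falls of that step, −0.670 at 21.0 Mb, −0.630 at 20.5 Mb and −0.485 at 21.5 Mb. The bin of Cdon, a surface co-receptor that promotes myogenic differentiation, at 35.0 Mb had 0.373, 0.199 and −0.251. At 44.0 Mb the bin of Thy1, Mcam and H2afx was lower at both steps, with 1.94, 1.46 and 1.09, a difference of −0.845 over the whole course without a change of sign.

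In the middle of the chromosome, between 49 and 109 Mb, 3 bins left A and 6 entered it in the first step, and 4 left and 8 entered over the whole course. Col12a1, a collagen of the fibril surface, lies in the bin at 79.5 Mb, with −0.337, 0.232 and 0.191, and Cd109 in the bin at 78.5 Mb, with −0.0265, 0.349 and 0.358. The bins of Ibtk and Tpbg at 85.5 Mb and of Tbx18, a T-box factor gene, at 87.5 Mb had −0.0664, 0.314 and 0.279 and −0.189, 0.290 and 0.0391. These 4 bins were in A by day 3. The bin of Anxa2, an annexin gene, at 69.0 Mb crossed 0 only after AraC, with −0.186, −0.322 and 0.149. A run of 3 bins at chr9:106000001-107500000 left A in the first step. Of these, the bins at 106.5 and 107.0 Mb returned to A in AraC-treated myotubes: that of Rad54l2 had 0.370, −0.0211 and 0.191, and that of Dock3 (a Rac exchange factor) and Cacna2d2 (a calcium channel subunit) had 0.322, −0.160 and 0.114. Only the bin at 107.0 Mb left A and returned with every way of taking the component. The bin at 106.0 Mb was at just 0.0122 in Myoblasts. In the bin of Atr, the replication stress kinase gene, at 95.5 Mb PC1 was 0.509, 0.0509 and −0.0632.

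The block between 54.5 and 68 Mb was the stable A core. All its 27 bins, with 166 protein-coding start sites, were in A in the 3 conditions, with a median PC1 of 2.10, 1.96 and 1.94. Within it lay the 3 bins with the highest mean PC1, at 65.0 Mb with 2.54, 2.29 and 2.20, at 57.5 Mb with 2.53, 2.28 and 2.15 and at 58.0 Mb with 2.42, 2.27 and 2.16. Neo1, a receptor that acts with Cdon in myogenesis, Smad3 and Smad6, mediators of TGF-β and BMP signals, and Tpm1, a tropomyosin of the thin filament, lie in this block. The lowest mean PC1 was at 97.5 Mb, with no coding start site and −1.34, −1.30 and −1.20, followed by the bin of Ntm, a neuronal adhesion molecule gene, at 29.5 Mb, with −1.29, −1.25 and −1.21. At 27.0 Mb, with Jam3, Ncapd3 and Vps26b, PC1 was −1.10, −1.28 and −1.31. The stretches at 18 to 20.5 Mb and 38 to 40.5 Mb, which hold most of the olfactory receptor genes of the chromosome, were B throughout, with a PC1 between −1.06 and −0.754 in all 10 bins and all conditions.

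**Figure D4:**
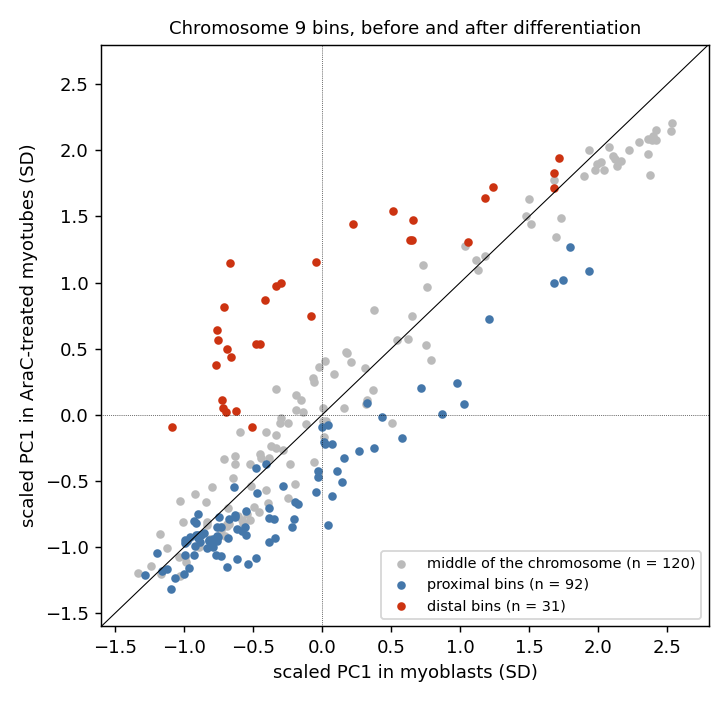
Scaled PC1 of the 243 bins with AraC-treated myotubes on the vertical and Myoblasts on the horizontal axis, with distal bins (from 109 Mb on) in red, proximal bins (3 to 49 Mb) in blue, the rest in grey and a line of equality. All 31 distal points lie above the line, and 79 of the 92 proximal points lie below it.

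Gene lists, chosen with earlier results of these data known, were followed by the bin of the start site, so genes of a cluster share a value and are not separate measurements. Over all 1210 protein-coding genes in member bins, 638, 614 and 630 were in A in the 3 conditions. Over the whole course 92 entered A and 100 left it, and the median difference in PC1 was −0.123. The list of inflammatory caspases and chemokine receptors had the most moves into A. Of its 19 genes in 10 bins, 5, 10 and 14 were in A, and over the whole course 9 entered A and 0 left it, with a median difference of 0.712. The moves were all in bins of the distal end and included Ccr1, Ccr9, Cxcr6 and Xcr1 in the bin at 123.5 Mb (−0.0820, 0.545 and 0.747), Ccr2 and Ccr3 at 124.0 Mb (−0.695, −0.336 and 0.0175), Ccr4 at 114.5 Mb and Ccrl2 at 111.0 Mb (−0.477, −0.0713 and 0.534). The inflammatory caspase genes Casp1, Casp4 and Casp12 at 5.0 Mb were B throughout, with −0.479, −0.437 and −0.404.

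Of 16 genes of muscle contraction and the sarcomere, 12, 11 and 13 were in A in the 3 conditions. Over the whole course 1 entered A, Stac, and 0 left it, with a median difference of 0.180. Xirp1, an actin-binding protein gene of striated muscle, in the bin at 120.0 Mb had 1.24, 1.47 and 1.73. Klhl40 at 121.5 Mb had 1.72, 1.86 and 1.94, and Tpm1 at 67.0 Mb had 1.50, 1.69 and 1.63. Sln, the regulator of the calcium pump, was B throughout in the bin at 53.5 Mb with −0.337, −0.362 and −0.250. The higher values of this group thus stood mostly in bins of the distal end that were A already in Myoblasts.

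In the list of 20 genes of myogenic signalling and adhesion, 15, 14 and 14 were in A. Over the whole course 2 entered A (Tgfbr2 and Itga9) and 3 left it (Cdon, Ets1 and Fli1), with a median difference of −0.221. Ncam1, the neural cell adhesion molecule that marks differentiating muscle cells, was the only start site of the bin at 49.5 Mb, which was higher in both later conditions with 0.379, 1.05 and 0.790. Of 16 genes of the cell cycle, replication and DNA damage, 10, 8 and 8 were in A. Here Cdc25a at 109.5 Mb moved from B to A (−0.623, −0.237 and 0.0307), and Dnmt1, Atr and Mre11a moved from A to B, with a median difference of −0.121 over the list. Of 21 genes of the extracellular matrix and metalloproteinases, 5 were in A in each condition, 2 entered A (Col12a1 and Anxa2) and 2 left it (Col6a4 and Pcolce2), with a median difference of −0.292. The 9 metalloproteinase genes at 7.0 and 7.5 Mb were B throughout. Of 16 neuronal genes, 7, 5 and 5 were in A, 0 entered A and 2 left it (Grik4 and Kirrel3), with a median difference of 0.0826. None of the 132 olfactory receptor genes was in A in any condition, and their median difference was −0.0742.

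Whether contacts with other chromosomes moved with those inside chromosome 9 was read from a trans score, the mean coefficient of a bin with stable A bins less that with stable B bins of the other autosomes, centred and divided by its SD. Among the changed bins the trans score moved the way of PC1 in 27 of 27 in the first step, 41 of 43 over the whole course and 21 of 22 in the second step. Over the changed bins of all autosomes the shares were 98.5%, 98.3% and 98.8%. The exceptions were bins with small differences: 75.0 Mb, with Myo5a (PC1 from 0.00434 to −0.0453), 88.0 Mb, with Nt5e (0.0256 to −0.0472), and 43.0 Mb, with Arhgef12 (−0.0206 to 0.00563). Across the 243 bins the differences in PC1 and in trans score had a Pearson correlation of 0.993, 0.987 and 0.975, where both come from the same matrices and a coefficient between chromosomes correlates whole interaction profiles, contacts inside the chromosome included. They are therefore not independent of each other.

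**Figure D5:**
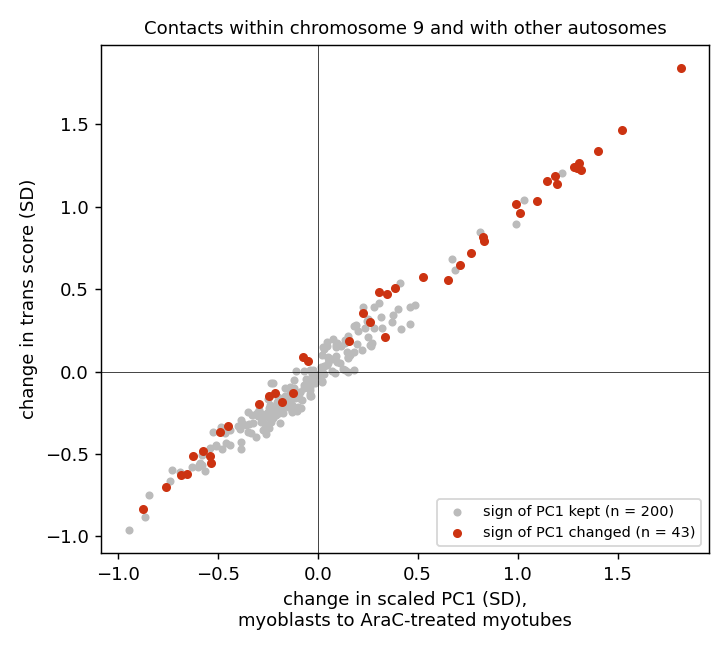
Difference in trans score against difference in scaled PC1, both from Myoblasts to AraC-treated myotubes, for the 243 bins of chromosome 9, with the 43 bins that changed sign in red. The points follow a line through 0, and 41 of the 43 red points lie where both differences have the same sign.

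The trans profile of a bin, its coefficients with all bins of the 18 other autosomes, was also correlated between conditions. Its median *r* over chromosome 9 was 0.797 in the first step, 0.735 over the whole course and 0.935 in the second step, where all autosomal bins had medians of 0.823, 0.782 and 0.939. Chromosome 9 was the second lowest autosome in both comparisons with Myoblasts and the sixth lowest in the other. In the 16 bins between 111 and 119 Mb the median was 0.0684, −0.483 and 0.442. These bins were chosen by their PC1, and differences in PC1 went with those in trans score. Their medians are therefore not separate support for PC1. The lowest values over the whole course were −0.654 for Arpp21 at 112.0 Mb, −0.584 for Rbms3 at 117.5 Mb and −0.575 for the Golga4, Itga9 and Ctdspl bin at 118.5 Mb. A negative *r* means that partners with above-average coefficients in one condition tended to have below-average ones in the other. The bin at 118.5 Mb was also lowest in the first step, with −0.465, ahead of Col12a1 at 79.5 Mb (−0.338) and Sorl1 at 42.0 Mb (−0.337). In the second step the lowest were Arpp21 (−0.506), Gadl1 (−0.213) and Stt3b (−0.191).

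Within the chromosome, the profile correlation of a bin was below 0 in 16 of 243 bins (6.58%) in the first step, 23 (9.47%) over the whole course and 8 (3.29%) in the second step. Over all autosomes these shares were 3.26%, 5.80% and 1.16%. The stretch from 111 to 119 Mb held 6, 14 and 7 of them. The 27 bins of the stable A core had a profile *r* of at least 0.787, 0.707 and 0.850. Both segments were chosen by their PC1, which is computed from these same profiles. The difference between them therefore describes that choice and does not support PC1.

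Base content and gene density were also taken for the classes of bins. Median GC content was 45.0% in the 69 bins that were always A and 41.0% in the 128 that were always B, and 43.7% in the 46 that changed. Bins that were always A held 7.49 protein-coding start sites on average and those always B held 3.75. Bins that moved from B to A by day 3 and stayed there held 3.20, and those that moved from A to B by day 3 and stayed there held 5.67. The stretch from 111 to 119 Mb had a median GC content of 44.0% and 145 HindIII sites per bin, against 167.5 in bins that were always B and 150 in those always A. The correlation of PC1 with GC content over the 243 bins was 0.526, 0.536 and 0.558, and that with the number of start sites 0.324, 0.307 and 0.274. These are descriptions across bins of 1 chromosome.

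Many changed bins lay close to the border, on chromosome 9 and over all autosomes. Of the 27, 43 and 22 changed bins, 21, 29 and 22 had a PC1 within 0.2 of 0 in at least 1 of the compared conditions (77.8%, 67.4% and 100%). Over all autosomes the shares were 79.7%, 70.6% and 93.8%. Thus in the second step no bin changed by more than this margin on both sides. The bins closest to the border in Myoblasts were at 86.5 Mb with 0.00410 and at 45.5 Mb with −0.000688. In AraC-treated myotubes they were at 43.0 Mb with 0.00563 and at 23.0 Mb, the bin of Bmper, with −0.0203. A change was present in all 5 ways of taking the component (all, odd, even or distant partner bins, or bins of other autosomes) for 20 of 27, 31 of 43 and 15 of 22 bins (74.1%, 72.1% and 68.2%), near the shares of 67.4%, 70.6% and 63.1% over all autosomes. Over the whole course it was so for 22 of 26 bins that entered A (84.6%, against 89.2% over all autosomes) and for 9 of 17 that left it (52.9%, against 59.9%). The distal bins at 116.5 to 118.5 Mb were among the former and the bins of Sorl1 and Grik4 among the latter, while those of Tgfbr2, Stac and Ets1 were not in either.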

How the data were processed

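Hi-C libraries of C2C12 cells were digested with HindIII and made from 2 biological replicates of each condition. Per the paper's methods, reads were mapped with bowtie and filtered in HiCUP, and HOMER removed tag spikes and pairs far from HindIII sites, pooled the replicates and normalized the interactions. The labels name the builds GRCh38 and mm10, and the bins fit mm10. The authors deposited a matrix for each condition, in which the score of a pair of 500 kb bins is the Pearson correlation of their normalized contacts. Mouse sequence and GENCODE vM21 were of GRCm38.

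PC1 was computed on the column-centred block of each autosome with Python 3.11.15, NumPy 2.4.6 and SciPy 1.17.1, and figures were drawn with Matplotlib 3.10.9. Groups were taken from the labels, and columns of unmapped samples numbered 0. No test was run, since replicates were pooled. Depth is not known from the matrices. The steps were run on simulated matrices of a single component plus random noise. Recovery of changed signs was required only for bins well away from 0. The simulation therefore says nothing on the calls of bins close to the border.

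Chromosome 9, its segments and the gene lists were chosen with earlier results of these data known. Genes and bins named are the longest runs of each direction, the 5 largest rises and falls of PC1 in comparisons with Myoblasts and 3 in the other, the 3 lowest trans profiles per pair, the extremes of mean PC1, the bins next to 0 and all lists by counts. The other bins described between 78.5 and 107.0 Mb, those at 35.0 and 49.5 Mb, and the bins of the distal stretch were chosen after their values were seen.

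Alternatives were the component from other autosomes, uncentred columns, odd or even partner bins, bin pairs within 2 Mb left out, an equal number of A bins, a minimum absolute PC1 of 0.2, Spearman correlation, and partner bins by compartment or by autosome number. Removal of a linear trend with position was chosen after seeing the data. RNA-seq, chromosomes X and Y and significant interactions were not analysed here.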

Additional observations from a re-analysis of the deposited data

How the results depend on the processing

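No paired analysis was possible because the replicates were pooled before deposit, and for the same reason no replicate could be left out. The counts of changed bins stayed within 1.5 times the reported values under every alternative except the minimum absolute PC1 of 0.2, which left 6 bins in the first step, 14 over the whole course, 0 in the second step and 15 in any pair. This setting removes by construction the bins next to the border. The rank of chromosome 9 in the first step became 2 with uncentred columns, with bin pairs within 2 Mb left out and with the minimum of 0.2. Over the whole course it became 3 with uncentred columns and 2 with the linear trend removed. In the second step it was 4 with the component from other autosomes, 5 with uncentred columns, 3 with even partner bins, 3 with bin pairs within 2 Mb left out, 1 with an equal number of A bins, 10 (tied at no change) with the minimum of 0.2 and 4 with the trend removed. The median trans profile *r*, for the first step, the whole course and the second step, became 0.703, 0.646 and 0.851 with Spearman correlation, 0.712, 0.620 and 0.882 over partner bins always in A and 0.371, 0.267 and 0.502 over those always in B. The cause was not tested for these ranks and medians. The correlation of PC1 between conditions over chromosome 9 (0.952, 0.894 and 0.974) ran over its 7 alternatives from 0.920 to 0.966, from 0.849 to 0.928 and from 0.967 to 0.978, and the counts of changed bins whose trans score moved the way of PC1 were the same with odd-numbered or even-numbered autosomes alone.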

Other observations

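Along chromosome 9, the difference in PC1 was larger towards the distal end, with a Pearson correlation with position of 0.560 in the first step, 0.591 over the whole course and 0.430 in the second step, over 243 bins that share 1 chromosome. For PC1 itself this correlation was 0.103 in Myoblasts, 0.277 by day 3 and 0.375 by day 7. The correlation of the difference with position was above 0 on 17 of 19 autosomes in both comparisons with Myoblasts (medians 0.258 and 0.260) and on 12 of 19 in the other (median 0.112). Chromosome 9 had the highest value of the 19 in both comparisons with AraC-treated myotubes and the second highest in the first step, where chromosome 2 had 0.574. Mouse chromosomes have the centromere at their start, so position here is also distance from the centromere.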
